A study of Saccharomyces cerevisiae with 24 samples.

Results

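The RNA of a yeast culture in its metabolic cycle was compared between 240 min and 230 min, a step of 10 min, across 5979 genes. These are the genes, out of 6562 in the table, whose mean over the 12 RNA-seq libraries was at least 10 RPKM (reads scaled to gene length and library size, as derived here from the deposited values), and 583 genes fell below that minimum. All libraries came from budding yeast (Saccharomyces cerevisiae) of the strain CEN.PK, grown in minimal medium in the yeast metabolic cycle, and they differ in sampling time alone as far as the labels say. RNA was sequenced at 0, 20, 60, 110, 140, 180, 200, 210, 220, 230, 240 and 260 min, with 1 library per time, and 12 MNase-seq samples from those times were not analysed here. With 1 library at 240 min and 1 at 230 min, every difference below describes these 2 libraries, has no replicate check and carries no test. The minimum kept MND1, with a mean of 10.0 RPKM, HXT16 and YHR218W just inside it, and left HFM1, ATF2 and DIT2 just outside, the last with a mean of 9.98 RPKM.

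In the yeast metabolic cycle, a dense culture held under limited glucose falls into step and repeats a burst of oxygen consumption followed by a long stretch of low consumption. Genes of ribosome assembly and protein synthesis are known to be induced together in the burst, genes of mitochondria and of the cell division cycle after it, and genes of stress protection, storage carbohydrates and fat breakdown in the stretch of low consumption. A ribosome in the cytosol and a ribosome in mitochondria are separate machines built from separate genes, and the genes of each are known to be controlled as a group.

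The interval carried the working description of an onset of cell division and mitochondrial genes, and the data went against the part on cell division. Over all 5979 genes, 597 were at least 2-fold higher at 240 than at 230 min (9.98%) and 298 at least 2-fold lower (4.98%), and the median difference was 0.15. All such differences are in log2(RPKM + 1), 240 min minus 230 min. Among 302 genes in 13 lists for cell division, 4 were at least 2-fold higher and 9 at least 2-fold lower, with a median of 0.04. Among 311 mitochondrial genes in 11 lists, 153 were at least 2-fold higher and 2 at least 2-fold lower, with a median of 0.99. The lists for growth, which cover cytosolic ribosomes, their assembly, nucleotides and amino acids, held 590 genes, of which 4 were at least 2-fold higher and 143 at least 2-fold lower, with a median of -0.55. The 9 other lists held 255 genes, of which 66 were higher by that much and 1, the glycolysis gene PDC6, lower. They cover stress protection, reserve carbohydrates, acetate use, peroxisomes, autophagy, proteasome, glycolysis, and the synthesis of ergosterol, fatty acids and phospholipids. The interval is called 230 to 240 min below.

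The estimated depth was about 5110000 reads at 240 min and 5120000 at 230 min, within the range of 4360000 to 5960000 over the 12 libraries. At 240 min 1 read in a gene of 1 kilobase was worth 0.196 RPKM, and at 230 min 0.195 RPKM. The share of the 10 top genes in all signal was 5.74% at 240 min and 6.54% at 230 min. No kept gene was listed at 0 in either library. Of the 597 genes at least 2-fold higher, 26 had fewer than 20 estimated reads in at least 1 of the libraries. So had 6 of the 298 that were lower, and 86 of all 5979 genes. Of these groups, 13 and 10 genes overlap another annotated gene, beside 157 of all 5979. A further 47 and 27 genes of the groups, and 503 of all, were not matched to the annotation. Neither the overlaps nor the estimated reads of unmatched genes are known, so these counts leave them out. The median of all genes depends on the scaling of the libraries. Scaling by the median ratio of the genes shifted it by -0.18 and quantile normalization by -0.17. The counts of genes at least 2-fold higher and lower were then 392 and 425 by the median ratio, and 429 and 403 by quantiles. The share of higher genes among all genes past 2-fold was 66.7% without rescaling, 48.0% by the median ratio and 51.6% by quantiles, so the excess of higher genes depends on the scaling.

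The 2 libraries differed widely. The largest differences were -3.88 and 3.29, the middle part of the genes ran between the 25th percentile of -0.23 and the 75th of 0.55, and 50 genes were at least 4-fold higher and 13 at least 4-fold lower at 240 min. By any amount, 3632 genes (60.7%) were higher at 240 min and 2347 lower. Genes past 2-fold numbered 895 in this step, 1252 in the step of 210 to 220 min and 111 in that of 200 to 210 min, each of 10 min. They numbered 786 in the step of 220 to 230 min, where 400 genes were higher (6.69%) and 386 lower (6.46%) at the later time. In the step of 240 to 260 min, which lasts 20 min, 720 genes were higher (12%) and 1515 lower (25.3%) at the later time. A step of the same 20 min earlier in the cycle, 180 to 200 min, had 7 genes higher (0.117%) and 3 lower (0.0502%). The step sizes differ in minutes, and adjacent steps share a library.

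**Figure D1:**
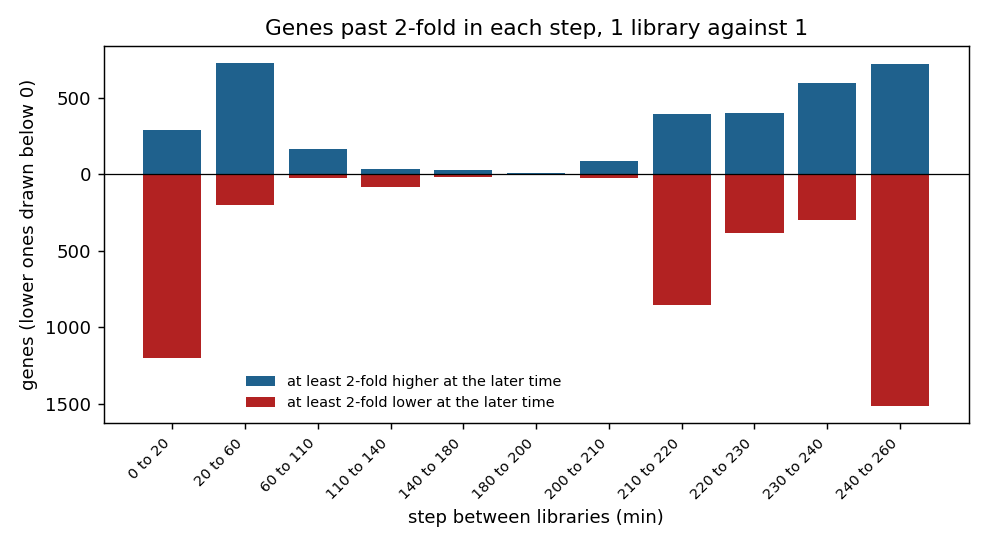
Number of genes at least 2-fold higher (bars above 0) or lower (bars below 0) at the later of 2 neighbouring libraries, for the 11 steps in time, 1 library against 1. The step of 230 to 240 min has 597 higher and 298 lower genes, and the 5 steps between 60 and 210 min have at most 189 in all.

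**Figure D2:**
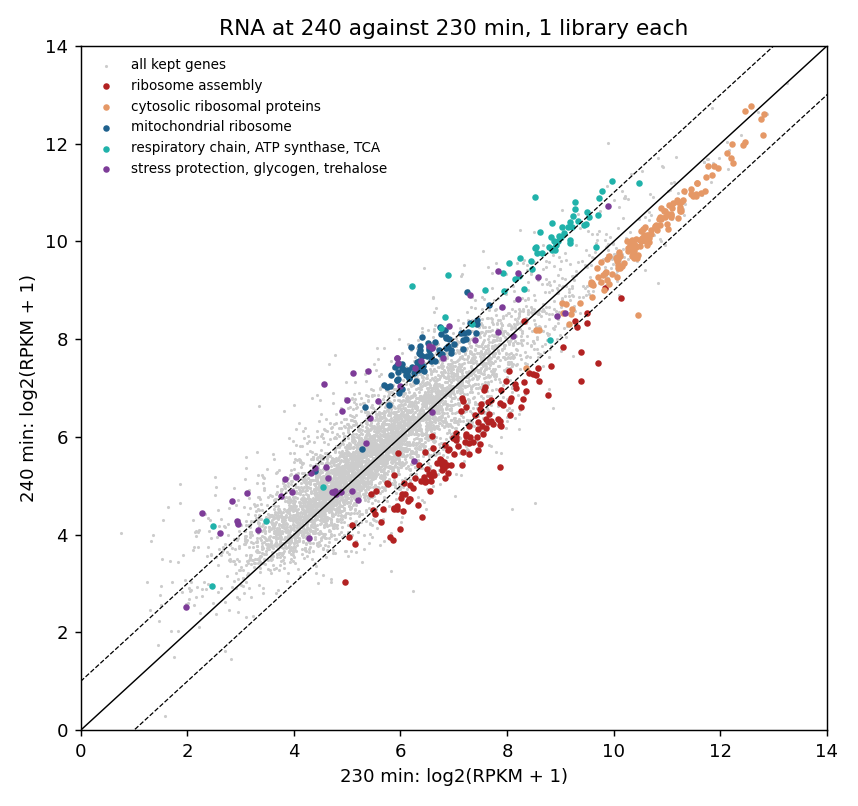
RNA level of each kept gene at 240 min (vertical axis) against 230 min (horizontal axis), both in log2(RPKM + 1), with equal levels as a solid line and 2-fold differences as dashed lines. Ribosome assembly genes lie below the diagonal and mitochondrial ribosome genes above it, and cytosolic ribosomal protein genes form a tight band just below it.

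The clearest group on the lower side was ribosome assembly. Of 55 genes of the small subunit processome, the large particle that folds and cuts the precursor of the small subunit, 43 were at least 2-fold lower at 240 than at 230 min and none higher, with a median of -1.27. Of 68 genes of 60S subunit assembly, 52 were at least 2-fold lower, with a median of -1.29, and so were 13 of 19 genes of small nucleolar ribonucleoproteins and nucleolar proteins, with a median of -1.21. RNA polymerase I and III, which make ribosomal and transfer RNA, had 15 of 34 genes at least 2-fold lower, and tRNA modification had 9 of 35, or 17 under either other scaling. All 55 processome genes and all 68 genes of 60S assembly were lower by some amount without rescaling. The medians of these lists were -1.45 and -1.47 by the median ratio, and -1.45 and -1.49 by quantiles.

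NSR1 (YGR159C, chromosome VII, 806412 to 807656 in build R64), a nucleolar protein of ribosomal RNA processing, was at 140 RPKM at 240 min, compared with 671 RPKM at 230 min, a difference of -2.25. NOP1 (YDL014W, chromosome IV, 427364 to 428347), the methyltransferase of box C/D particles known as fibrillarin, had 180 RPKM at 240 min, against 834 RPKM at 230 min (difference -2.20). These genes had reached their highest library at different times. NSR1 peaked at 1689 RPKM at 220 min, whereas NOP1 had 617 RPKM at 220 min and peaked at 230 min. By 260 min NSR1 was down to 3.13 RPKM and NOP1 to 7.53 RPKM. DBP2 (YNL112W, chromosome XIV, 413639 to 416281), a DEAD-box RNA helicase, showed the largest difference of the 60S assembly list, with 41.0 RPKM at 240 min, compared with 232 RPKM at 230 min (-2.47). Its neighbour RPC19 (YNL113W, chromosome XIV, 412771 to 413199), a subunit shared by RNA polymerases I and III, had 92.9 RPKM at 240 min, against 301 RPKM at 230 min (-1.68). Other helicases of the same kind of work were also among the 15 lowest named genes. DBP7 (YKR024C) had 13.8 RPKM at 240 min against 57.2 RPKM at 230 min, and DHR2 (YKL078W) had 7.18 RPKM at 240 min against 30.3 RPKM at 230 min. UTP18 (YJL069C), a processome subunit, had 19.6 RPKM at 240 min, compared with 83.9 RPKM at 230 min (-2.04). RPA135 (YPR010C, chromosome XVI, 577585 to 581196), the second largest subunit of RNA polymerase I, had 68.7 RPKM at 240 min, against 191 RPKM at 230 min (-1.47).

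For most of these genes the lowest level came later. Of the 298 genes at least 2-fold lower at 240 than at 230 min, 227 had their highest library at 220 min (76.2%, beside 17.9% of all genes). For 61 it was 230 min (20.5%, beside 16.4%). At 260 min 269 were at least 2-fold lower again than at 240 min (90.3%, against 25.3% of all genes). Already at least 2-fold lower at 230 than at 220 min were 31 of them (10.4%, beside 6.46% of all genes). Lower by some amount in that step were 232 (77.9%, beside 45.5%). At 240 min 212 of the 298 were still above their level at 200 min (71.1%, beside 56.6% of all genes). The median level of the 298 genes was 44.4 RPKM at 240 min, compared with 118 RPKM at 230 min, and it reached 3.82 RPKM at 260 min. The members were selected on the difference of 240 and 230 min, so the other times are the comparisons that the selection did not fix, although 240 min is shared by the step to 260 min.

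The cytosolic ribosomal proteins differed much less than the genes that assemble them. The 81 genes of the large subunit had a median of -0.48 with none past 2-fold in either direction, and the 57 of the small subunit had a median of -0.46 with 1 at least 2-fold lower. These counts are without rescaling. By the median ratio 2 genes of each subunit were at least 2-fold lower. By quantiles 1 large and 2 small subunit genes were lower by that much, and 2 large subunit genes higher. Of the large subunit genes, 79 were lower at 240 min and 2 higher, and all 57 of the small subunit were lower. RPL3 (YOR063W), a protein of the large subunit, had 2970 RPKM at 240 min, against 3467 RPKM at 230 min (-0.22). The highest library of the ribosomal protein genes came later than that of the assembly genes. It was 230 min for 75 of 81 large subunit and 56 of 57 small subunit genes, and 220 min for 60 of 68 genes of 60S assembly and 52 of 55 processome genes.

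The single ribosomal protein gene past 2-fold without rescaling was RPS28B (YLR264W, chromosome XII, 673131 to 673334). It had 362 RPKM at 240 min, against 1399 RPKM at 230 min, a difference of -1.95. Its paralog RPS28A (YOR167C, chromosome XV, 648804 to 649007), which encodes nearly the same protein, had 2335 RPKM at 240 min, compared with 3030 RPKM at 230 min (-0.38). At 230 min RPS28B was at its highest of the 12 libraries, and at 260 min it was down to 69.6 RPKM and RPS28A to 600 RPKM. Reads of such near-identical pairs can be split between the copies in a way the sources used here do not describe, so the values of each copy are uncertain.

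Genes of protein synthesis beyond the ribosome followed the ribosomal proteins. The medians were -0.44 for 38 translation factors and -0.46 for 21 cytosolic aminoacyl-tRNA synthetases, with 1 gene of each at least 2-fold lower. TEF1 (YPR080W), translation elongation factor 1 alpha, had 6215 RPKM at 240 min, against 7523 RPKM at 230 min (-0.28). Nucleotide synthesis was mixed. URA7, which makes CTP (YBL039C, chromosome II, 143989 to 145728), had 70.5 RPKM at 240 min, compared with 298 RPKM at 230 min (-2.06), and GUA1, which makes GMP (YMR217W, chromosome XIII, 701790 to 703367), had 201 RPKM at 240 min, against 600 RPKM at 230 min (-1.57). The 30 purine and one-carbon genes had a median of -0.11 with 4 at least 2-fold lower, or 7 by the median ratio. The 14 pyrimidine genes had a median of -0.69 with 2 at least 2-fold lower, URA7 and the uracil salvage enzyme FUR1, and 1 higher. Under either other scaling 4 of the 14 were at least 2-fold lower. The 1 higher gene was YNK1 (YKL067W), the nucleoside diphosphate kinase, with 757 RPKM at 240 min, compared with 313 RPKM at 230 min (1.27). Amino acid synthesis stayed near 0, with a median of -0.17 over 60 genes and 1 of them past 2-fold. In the sulfur and methionine list 3 of 33 genes were at least 2-fold higher at 240 min (9.09%, beside 9.98% of all genes), MET1, SUL1 and MHT1. The median of that list was 0.23, beside 0.15 over all genes, and 0.04 by the median ratio.

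The lower side also held genes outside growth. HXT4 (YHR092C, chromosome VIII, 287081 to 288811), a high-affinity glucose transporter, had the largest difference of all genes, with 24.2 RPKM at 240 min, against 369 RPKM at 230 min (-3.88). It had been at 363 RPKM at 220 min and at 35.0 RPKM at 200 min, so the libraries of 220 and 230 min were high and that of 240 min was below 200 min. ANS1 (YHR126C, chromosome VIII, 359702 to 360181) had 6.17 RPKM at 240 min, about 15.1 estimated reads, and 74.8 RPKM at 230 min (-3.40). GPP2 (YER062C), a glycerol phosphatase, had 55.5 RPKM at 240 min, compared with 208 RPKM at 230 min, after 1298 RPKM at 220 min. PDC6 (YGR087C), a minor pyruvate decarboxylase, was the only glycolysis gene at least 2-fold lower, with 15.1 RPKM at 240 min, against 42.1 RPKM at 230 min (-1.42).

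Mitochondrial ribosomal protein genes were on the other side from the cytosolic ones. Of 43 genes of the mitochondrial large subunit, 30 were at least 2-fold higher at 240 than at 230 min, all 43 were higher, and the median was 1.18. Of 36 listed with the small subunit, 22 were at least 2-fold higher, all were higher, and the median was 1.05. After median-ratio scaling 21 of the 43 and 13 of the 36 were still past 2-fold, and the medians were 0.99 and 0.87. The spread among members was narrow: the large subunit genes lay between 0.63 and 1.64.

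MRPL7 (YDR237W, chromosome IV, 936615 to 937493), a protein of the mitochondrial large subunit, had 173 RPKM at 240 min, compared with 58.6 RPKM at 230 min (1.54). It had been between 35.6 and 68.1 RPKM in all libraries between 60 and 230 min. MRPL31 (YKL138C, chromosome XI, 185286 to 185681) showed the largest difference of the large subunit, with 263 RPKM at 240 min, against 83.4 RPKM at 230 min (1.64). MRP2 (YPR166C, chromosome XVI, 876282 to 876629), of the small subunit, had 230 RPKM at 240 min, compared with 72.5 RPKM at 230 min (1.65). RSM26 (YJR101W), also of the small subunit, had 166 RPKM at 240 min, against 83.9 RPKM at 230 min (0.98). None of these levels was the highest of the cycle. At 260 min MRPL7 stood at 326 RPKM and MRPL31 at 457 RPKM, and 40 of the 43 large subunit genes were highest in the 260 min library. KGD4 (YFR049W), once counted as a ribosomal protein and now known as a subunit of the alpha-ketoglutarate dehydrogenase complex, had the largest difference in the small subunit list (1.71), with 497 RPKM at 240 min, compared with 151 RPKM at 230 min.

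The genes that serve the mitochondrial ribosome were on the same side. Of 17 mitochondrial aminoacyl-tRNA synthetases, 12 were at least 2-fold higher, with a median of 1.12, as were 13 of 29 mitochondrial translation factors and activators, with a median of 0.90. Under either other scaling 4 of the 17 and 7 of the 29 were past 2-fold, with medians by the median ratio of 0.93 and 0.71. MSF1 (YPR047W), the mitochondrial phenylalanyl-tRNA synthetase, had 35.0 RPKM at 240 min, against 9.92 RPKM at 230 min (1.72). CBP6 (YBR120C), a translational activator of cytochrome b, had 164 RPKM at 240 min, compared with 39.7 RPKM at 230 min (2.02). RRF1 (YHR038W), the mitochondrial ribosome recycling factor, had 103 RPKM at 240 min, against 25.4 RPKM at 230 min (1.97). MEF2 (YJL102W, chromosome X, 231301 to 233760), a further factor of ribosome recycling, had 69.0 RPKM at 240 min, compared with 23.7 RPKM at 230 min (1.50). Unlike RRF1, which reached 152 RPKM at 260 min, MEF2 was at its highest at 240 min and had 34.0 RPKM at 260 min.

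Assembly factors of the respiratory complexes belonged to the same side. Of 38, 25 were at least 2-fold higher at 240 min, with a median of 1.14. COX17 (YLL009C, chromosome XII, 131205 to 131414), the copper chaperone of cytochrome c oxidase, had 226 RPKM at 240 min, against 50.5 RPKM at 230 min (2.14). SDH5 (YOL071W), which attaches the flavin to succinate dehydrogenase, had 193 RPKM at 240 min, compared with 46.7 RPKM at 230 min (2.02), and SDH6 (YDR379C-A), another assembly factor of that enzyme, had 79.3 RPKM at 240 min, against 21.3 RPKM at 230 min (1.85). These genes were still far from their peak: the list's median difference between 260 and 240 min was a further 1.17, and 22 of the 38 genes were at least 2-fold higher at 260 min. OXA1 (YER154W), the insertase of the inner membrane, stood apart with 73.9 RPKM at 240 min, compared with 80.8 RPKM at 230 min (-0.13), after 37.3 RPKM at 220 min.

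Protein import took a smaller part. Of 44 import genes, 8 were at least 2-fold higher and 40 higher by some amount, with a median of 0.69. Under either other scaling 3 of the 44 were past 2-fold. MIA40 (YKL195W), which oxidises small proteins in the intermembrane space, had 289 RPKM at 240 min, against 98.5 RPKM at 230 min (1.54). The small subunits of the outer membrane translocase, TOM5 (YPR133W-A) and TOM6 (YOR045W), differed by 1.33 and 1.34, whereas its pore TOM40 (YMR203W) had 284 RPKM at 240 min, compared with 185 RPKM at 230 min (0.62). TIM23 (YNR017W), the channel of the inner membrane, had 382 RPKM at 240 min, against 283 RPKM at 230 min (0.43). HSP60 (YLR259C), the chaperonin of the matrix, had 483 RPKM at 240 min, compared with 252 RPKM at 230 min (0.94). Mitochondrial DNA maintenance and transcription was the mitochondrial list nearest to all genes, with 2 of 22 genes at least 2-fold higher, 1 lower (TRM1, a tRNA methyltransferase) and a median of 0.47. MIP1 (YOR330C), the mitochondrial DNA polymerase, had 18.8 RPKM at 240 min, against 16.7 RPKM at 230 min (0.16), and its 12 libraries lay between 16.7 and 24.1 RPKM. Iron-sulfur cluster and heme synthesis was similar, with 2 of 25 at least 2-fold higher and a median of 0.51. ISU2 (YOR226C), a scaffold of iron-sulfur clusters, was lower in that list, with 100 RPKM at 240 min, compared with 206 RPKM at 230 min (-1.03).

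**Figure D3:**
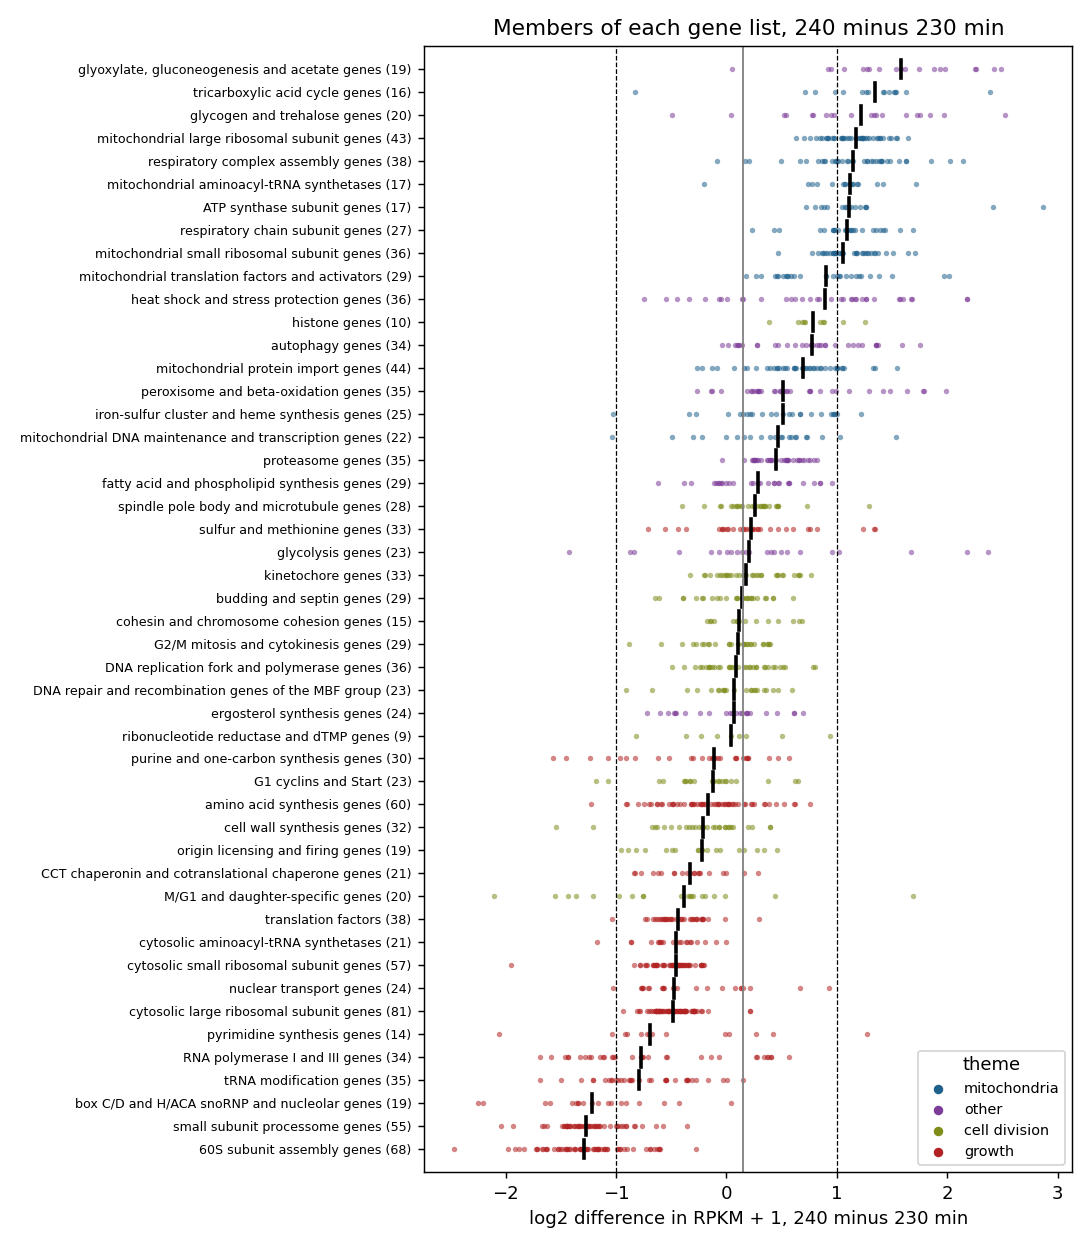
Difference between 240 and 230 min in log2(RPKM + 1) for every measured member (points) of the 48 gene lists, with the number of members in brackets, the list median as a black bar, the median of all kept genes (0.15) as a grey line and 2-fold differences as dashed lines. The lists with medians above 1 are mitochondrial or belong to storage carbohydrates and acetate use, and the 3 lists with medians below -1 all belong to ribosome assembly.

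The enzymes of respiration were higher too, at much higher levels and with another course. Of 27 respiratory chain subunits, 18 were at least 2-fold higher at 240 than at 230 min, with a median of 1.10, and their median level was 950 RPKM at 240 min, against 469 RPKM at 230 min. Of 17 genes of ATP synthase and its regulators, 12 were at least 2-fold higher (median 1.11), and of 16 genes of the tricarboxylic acid cycle, 12 (median 1.35). By the median ratio these counts were 8, 6 and 11. At 260 min only 5, 2 and 4 genes of these 3 lists were above their level at 240 min, in contrast to all 43 mitochondrial large subunit genes. The 0 min library was the highest of the 12 for 18 of 27, 12 of 17 and 12 of 16 of them.

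CIT1 (YNR001C, chromosome XIV, 629622 to 631061), the mitochondrial citrate synthase, had 1921 RPKM at 240 min, compared with 366 RPKM at 230 min (2.39). ACO1 (YLR304C, chromosome XII, 735212 to 737548), the aconitase that takes over its product, had 1787 RPKM at 240 min, against 614 RPKM at 230 min (1.54). SDH3 (YKL141W), a membrane anchor of succinate dehydrogenase, had 1171 RPKM at 240 min, against 394 RPKM at 230 min (1.57). NDI1 (YML120C), the internal NADH dehydrogenase, had 652 RPKM at 240 min, compared with 240 RPKM at 230 min (1.43). The external NADH dehydrogenases split by level. NDE2 (YDL085W) had 17.0 RPKM at 240 min, against 4.60 RPKM at 230 min (1.69), and NDE1 had 950 RPKM at 240 min, compared with 810 RPKM at 230 min (0.23).

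QCR2 (YPR191W), a core subunit of the cytochrome bc1 complex, had 1025 RPKM at 240 min, against 469 RPKM at 230 min (1.12), and 240 min was its highest library. COX4 (YGL187C), a subunit of cytochrome c oxidase, had 603 RPKM at 240 min, compared with 282 RPKM at 230 min (1.10). CYC1 (YJR048W), the main cytochrome c, had 1629 RPKM at 240 min, against 619 RPKM at 230 min (1.40). Its isoform CYC7 (YEL039C) had 6.71 RPKM at 240 min, compared with 4.54 RPKM at 230 min, which are about 11.7 and 7.96 estimated reads and too few to rank it. ATP1 (YBL099W), the alpha subunit of ATP synthase, had 2102 RPKM at 240 min, against 881 RPKM at 230 min (1.25). The members with the largest difference in that list were no subunits but regulators: STF2 (YGR008C, chromosome VII, 508110 to 508364), a protein that acts with the ATPase inhibitor, had 543 RPKM at 240 min, compared with 73.5 RPKM at 230 min (2.87), and STF1 (YDL130W-A) had 634 RPKM at 240 min, against 118 RPKM at 230 min (2.42). STF2 then reached 4279 RPKM at 260 min, a course unlike that of ATP1, which had 1472 RPKM at 260 min.

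**Figure D4:**
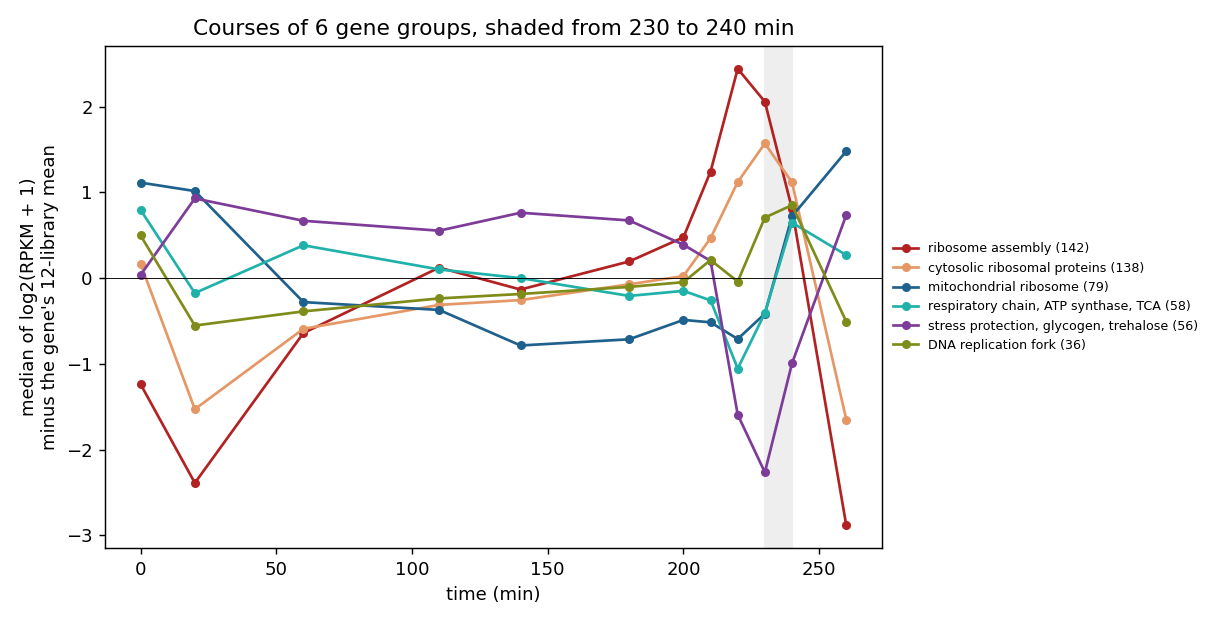
Median over the members of 6 gene groups (numbers in brackets) of log2(RPKM + 1) minus the gene's own mean over 12 libraries, against time in minutes, with 230 to 240 min shaded. Between the shaded times the 2 cytosolic ribosome groups go down and the mitochondrial and stress groups go up, and by 260 min the mitochondrial ribosome is further up while the respiratory chain group is lower than at 240 min.

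Genes of acetate use, reserve carbohydrates and stress protection made up the rest of the named groups on the higher side. Of 19 genes of the glyoxylate cycle, gluconeogenesis and acetate use, 16 were at least 2-fold higher at 240 min, with a median of 1.58, the highest of the 48 lists without rescaling and under both other scalings. Of 20 genes of glycogen and trehalose, 11 were at least 2-fold higher (median 1.22), of 36 heat shock and stress protection genes 17 (median 0.90), of 34 autophagy genes 10 (median 0.78) and of 35 peroxisome and beta-oxidation genes 8 (median 0.51). The counts for stress, autophagy and peroxisomes were 11, 8 and 7 by the median ratio, and 15, 6 and 3 by quantiles. Most of these genes were still low at 240 min. The 9 lists outside cell division, mitochondria and growth held 66 genes at least 2-fold higher, of which 4 were glycolysis genes. Of these 66 genes, 41 had their lowest library at 230 min and 21 at 220 min, which choosing the higher genes fixes in part. At 240 min 42 of the 66 were still at least 2-fold below their level at 200 min. Of the 153 mitochondrial genes at least 2-fold higher, 2 were that far below 200 min and 85 were at least 2-fold above it.

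ADY2 (YCR010C, chromosome III, 132273 to 133124), an acetate and ammonium transporter, had 47.2 RPKM at 240 min, compared with 7.57 RPKM at 230 min (2.49), far under its levels of 547 RPKM at 200 min and of 3728 RPKM at 260 min. Its paralog ATO2 (YNR002C, chromosome XIV, 633008 to 633856) had 698 RPKM at 240 min, against 85.6 RPKM at 230 min (3.01). ACS1 (YAL054C), an acetyl-CoA synthetase, had 115 RPKM at 240 min, compared with 20.7 RPKM at 230 min (2.42). ACH1 (YBL015W), which moves coenzyme A between acetate and succinate, took another course, with 889 RPKM at 240 min, against 185 RPKM at 230 min (2.26), since 240 min was already above its 320 RPKM at 200 min.

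GLC3 (YEL011W, chromosome V, 133120 to 135234), the glycogen branching enzyme, had 135 RPKM at 240 min, compared with 22.8 RPKM at 230 min (2.52). TPS1 (YBR126C), trehalose-6-phosphate synthase, had 162 RPKM at 240 min, against 40.7 RPKM at 230 min (1.97). Both had their lowest library at 220 min, with 6.23 RPKM for GLC3 and 26.7 RPKM for TPS1. The small heat shock proteins differed from each other. HSP42 (YDR171W) had 157 RPKM at 240 min, compared with 33.7 RPKM at 230 min (2.18), whereas HSP26 (YBR072W) had 196 RPKM at 240 min, against 111 RPKM at 230 min (0.82), with a highest library of 18080 RPKM at 140 min. HSP104 (YLL026W), a disaggregase, had 195 RPKM at 240 min, compared with 60.2 RPKM at 230 min (1.68). None of the 36 stress genes was above its level at 200 min.

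RGI1 (YER067W, chromosome V, 292066 to 292551), a gene induced in respiratory growth, had 204 RPKM at 240 min, against 26.3 RPKM at 230 min (2.90). HAB1 (YBR285W, chromosome II, 773922 to 774356) had 97.6 RPKM at 240 min, compared with 9.22 RPKM at 230 min, where it had about 20.5 estimated reads (3.27). YET2 (YMR040W), an endoplasmic reticulum protein, had 91.0 RPKM at 240 min, against 13.1 RPKM at 230 min (2.71). It differed from the others in that 240 min was its highest library and 230 min a dip of a single library, with 59.1 RPKM at 220 min. The beta-oxidation genes FOX2 (YKR009C) and POX1 (YGL205W) were past 2-fold at low levels, with 10.4 and 9.99 RPKM at 240 min, compared with 1.87 and 2.19 RPKM at 230 min, and they reached 864 and 922 RPKM at 260 min.

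Glycolysis as a list stayed low, with 4 of 23 genes at least 2-fold higher, 1 lower and a median of 0.21. TDH3 (YGR192C), the main glyceraldehyde-3-phosphate dehydrogenase, had 1097 RPKM at 240 min, against 972 RPKM at 230 min (0.17). Its libraries of 220 and 260 min were higher, with 4673 and 9246 RPKM. Isozymes of single steps went apart. The hexokinase HXK1 (YFR053C) had 642 RPKM at 240 min, compared with 141 RPKM at 230 min (2.18), and HXK2 (YGL253W) had 554 RPKM at 240 min, against 503 RPKM at 230 min (0.14). The pyruvate kinase PYK2 (YOR347C) had 50.4 RPKM at 240 min, compared with 8.95 RPKM at 230 min (2.37), and CDC19 (YAL038W), the main isozyme, had 322 RPKM at 240 min, against 574 RPKM at 230 min (-0.83). The proteasome list had a median of 0.45 with 34 of 35 genes higher and none past 2-fold.

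Some cell division lists, but not all, had a larger difference in the step from 220 to 230 min. The 23 genes of the G1 cyclins and Start, the commitment point of the cell cycle, had a median difference of -0.12 between 240 and 230 min with 2 at least 2-fold lower, and of 1.22 between 230 and 220 min with 15 at least 2-fold higher. The 36 genes of replication forks and DNA polymerases had a median of 0.09 with none past 2-fold, and of 0.69 in the step before with 13 at least 2-fold higher. In that step the 23 repair genes had a median of 0.74, and the lists for budding, cohesin and cell wall synthesis of 0.42 each. The medians were between 0.16 and 0.33 for origin licensing, spindle, kinetochore, histone and G2/M genes, and below 0 for ribonucleotide reductase (-0.26) and M/G1 genes (-0.25), beside 0.05 over all genes. At 260 min 28 of the 36 fork and polymerase genes were at least 2-fold lower than at 240 min, as were 25.3% of all genes. Medians between 0.04 and 0.18 in the lists for budding, replication forks, ribonucleotide reductase, repair, cohesin, kinetochores and G2/M, and that of ergosterol synthesis, changed sign under both other scalings, so no direction is given for those lists. In bulk RNA fewer cells with a transcript and less of it per cell cannot be told apart.

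The G1 genes did not act as a block. RNR1 (YER070W, chromosome V, 298950 to 301616), the large subunit of ribonucleotide reductase, had 183 RPKM at 240 min, compared with 323 RPKM at 230 min (-0.82), after 59.4 RPKM at 220 min. PCL1 (YNL289W, chromosome XIV, 87897 to 88736), a G1 cyclin of the kinase Pho85, had 128 RPKM at 240 min, against 271 RPKM at 230 min (-1.08). HCM1 (YCR065W, chromosome III, 229310 to 231004), a forkhead factor of S phase, had 44.0 RPKM at 240 min, compared with 101 RPKM at 230 min (-1.18). CLN2 (YPL256C), a G1 cyclin, held its level with 122 RPKM at 240 min, against 132 RPKM at 230 min (-0.12), and CLN1 (YMR199W) had 76.7 RPKM at 240 min, compared with 80.1 RPKM at 230 min. CLN3 (YAL040C), the cyclin upstream of Start, had 52.4 RPKM at 240 min, against 68.2 RPKM at 230 min (-0.37). CLB5 (YPR120C), an S phase cyclin, had 65.3 RPKM at 240 min, compared with 61.3 RPKM at 230 min (0.09). The cyclins CLB6 and CLB2 fell below the minimum of the rule.

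Among the replication genes, POL30 (YBR088C), the sliding clamp, had 382 RPKM at 240 min, against 376 RPKM at 230 min (0.02). POL1 (YNL102W, chromosome XIV, 430087 to 434493), the catalytic subunit of DNA polymerase alpha, had 56.4 RPKM at 240 min, compared with 41.2 RPKM at 230 min (0.44). Of the 36 fork genes, 20 were at their highest of the 12 libraries at 240 min and 12 at 230 min. The 6 subunits of the MCM helicase, which is loaded at origins, were all lower at 240 min. MCM7 had 37.0 RPKM at 240 min, against 72.6 RPKM at 230 min (-0.95), the largest difference of the 6, and MCM4 had 35.2 RPKM at 240 min, compared with 49.9 RPKM at 230 min (-0.49), the smallest. SMC3 (YJL074C) and MCD1 (YDL003W), both of cohesin, had 58.0 and 126 RPKM at 240 min, against 37.9 and 121 RPKM at 230 min. In the spindle list the 1 gene at least 2-fold higher was NUM1, which anchors dynein and mitochondria at the cell cortex, with 42.4 RPKM at 240 min, compared with 16.7 RPKM at 230 min (1.29).

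Histones were the one cell division list in which every measured member was higher. All 10 were higher at 240 than at 230 min without rescaling, with a median of 0.78, or 0.59 by the median ratio and 1.01 by quantiles, and 2 were past 2-fold, against 1 by the median ratio and 6 by quantiles. HHT2 (YNL031C, chromosome XIV, 575640 to 576050), for histone H3, had 2257 RPKM at 240 min, against 942 RPKM at 230 min (1.26). Its divergent neighbour HHF2 (YNL030W, chromosome XIV, 576727 to 577038), for histone H4, had 2649 RPKM at 240 min, compared with 1274 RPKM at 230 min (1.06). HTA1 (YDR225W), for H2A, had 1578 RPKM at 240 min, against 853 RPKM at 230 min (0.89), HTB2 (YBL002W), for H2B, had 1940 RPKM at 240 min, compared with 1181 RPKM at 230 min (0.72), and HHF1 (YBR009C) had 1855 RPKM at 240 min, against 1028 RPKM at 230 min (0.85). The variant HTZ1 had the smallest difference of the 10 (0.39). The copies of each histone are nearly the same in sequence, so the split between them is uncertain.

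Genes of the M/G1 boundary and of daughter cells were lower at 240 min, with a median of -0.38, 5 of 20 at least 2-fold lower and 1 higher. DSE2 (YHR143W, chromosome VIII, 385510 to 386487), a daughter-specific wall protein, had 50.6 RPKM at 240 min, compared with 220 RPKM at 230 min (-2.10). SUN4 (YNL066W) and SCW11 (YGL028C), which act in cell separation, had 29.8 and 10.9 RPKM at 240 min, against 89.4 and 31.2 RPKM at 230 min. DSE1 and the chitinase CTS1 were the others past 2-fold. RME1 (YGR044C), a repressor of meiosis, went against them with 68.9 RPKM at 240 min, compared with 20.6 RPKM at 230 min (1.69). The actin gene ACT1 (YFL039C), often taken as a stable gene, had 1042 RPKM at 240 min, against 825 RPKM at 230 min (0.34).

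**Figure D5:**
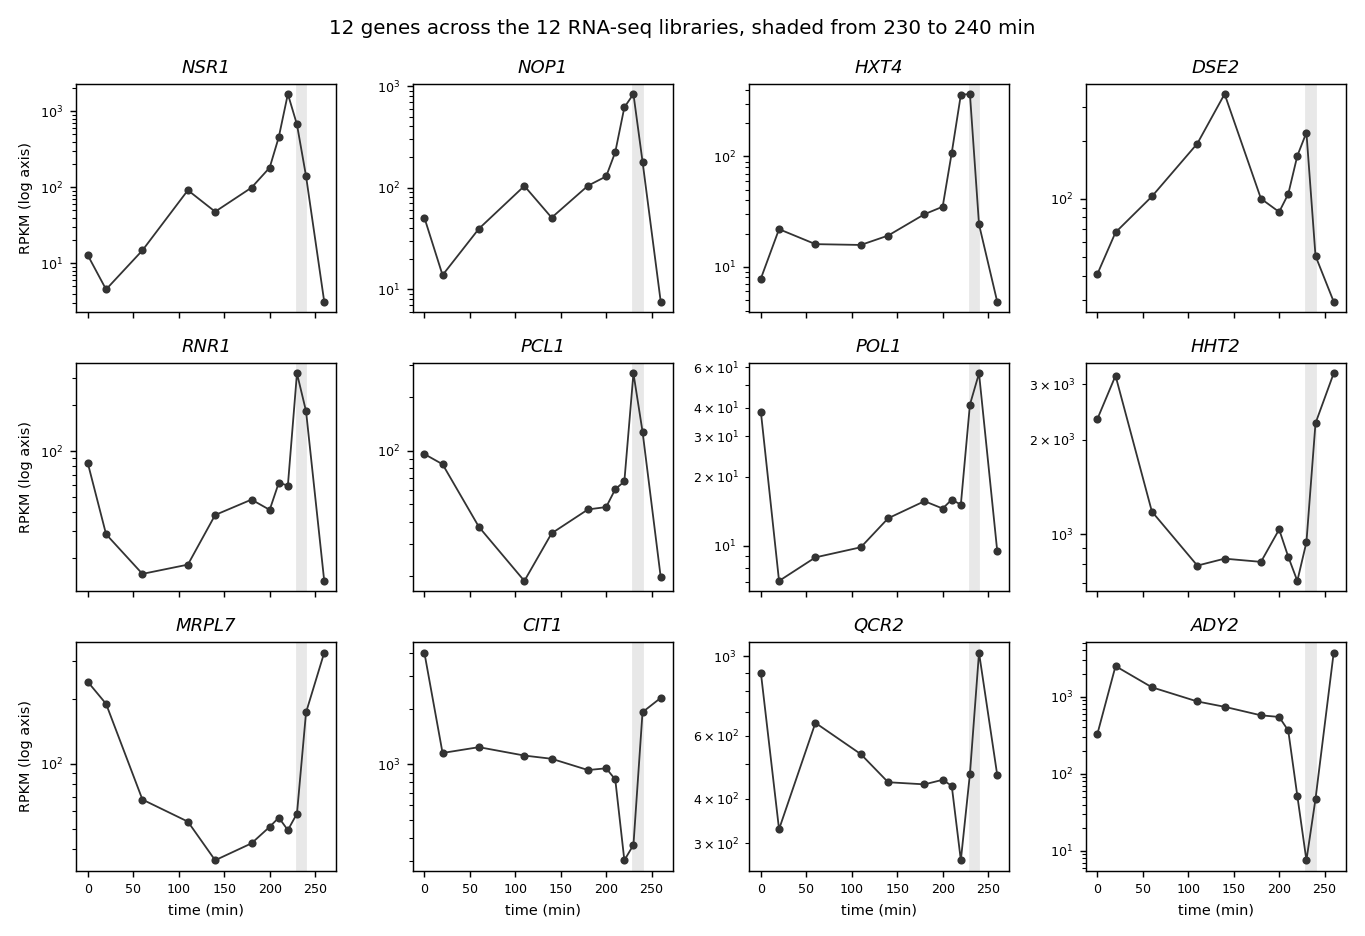
Level in RPKM on a log axis against time in minutes for 12 genes in the 12 libraries, with 230 to 240 min shaded and no error bars since each time is 1 library. NSR1, NOP1, HXT4 and DSE2 go down in the shaded step, RNR1 and PCL1 peak at 230 min, POL1 and QCR2 peak at 240 min, and HHT2, MRPL7, CIT1 and ADY2 go up.

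The 597 genes at least 2-fold higher were chosen for a level at 230 min under that at 240 min, which in part fixes where their lowest library lies. It was 230 min for 267 (44.7%, beside 16.0% of all genes) and 220 min for 243 (40.7%, beside 21.9%). Their highest library was 260 min for 321 (53.8%, beside 16.7% of all genes) and 0 min for 89 (14.9%, beside 11.1%). It was 240 min for 28 (4.69%), a smaller share than the 11.0% of all genes. At 260 min 496 (83.1%) were above their level at 240 min, against 38.6% of all genes. At least 2-fold above it were 309 (51.8%, beside 12.0% of all genes). Their median level was 94.9 RPKM at 240 min, compared with 34.0 RPKM at 230 min. Measured against 200 min, 115 were at least 2-fold above at 240 min (19.3%, beside 10.2% of all genes). At least 2-fold below were 173 (29.0%, beside 8.61%), and 265 were above by some amount (44.4%, beside 56.6%). Their median length was 1011 bases, against 1383 for the genes at least 2-fold lower and 1218 for all genes. Of the 597 genes, 371 were in none of the 48 lists, and of the 298 lower genes 144. The lists held 1455 of all 5979 genes. Of these 1455 genes, 15.5% were at least 2-fold higher and 10.6% at least 2-fold lower, beside 9.98% and 4.98% of all genes.

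Whether neighbouring genes passed 2-fold together was counted by orientation. Among 1284 divergent pairs of kept genes, 21.6% of the genes at least 2-fold higher had a partner that was too, where 9.38% of all genes in those pairs were. In tandem pairs the share was 17.0% (10.6% of all genes), and in convergent pairs it was 9.30% (9.51%). On the lower side the shares were 8.82% in divergent pairs (5.30% of all genes), 8.58% in tandem pairs (4.91%) and 2.84% in convergent pairs (5.20%). These are descriptions of 26, 43 and 12 pairs on the higher side and 6, 10 and 2 pairs on the lower side, and they were not tested. The reads do not mark the strand, and they cannot be assigned where transcripts of neighbours overlap. MRPL31 and CMC1, which start 275 bases apart, were at 263 and 175 RPKM at 240 min, against 83.4 and 78.2 RPKM at 230 min. AIM36 and MRPS8 (gap of 203 bases) differed by 1.84 and 1.45. On the lower side NSA2 and LCP5, both of ribosome assembly (gap of 301 bases), differed by -1.45 and -1.35, and RPA43 and RPA190, both of RNA polymerase I, by -1.28 and -1.43. In 5 divergent pairs 1 gene was at least 2-fold higher and its partner at least 2-fold lower. COX17 (2.14) shares its upstream region with DRS1, a ribosome assembly helicase that had 42.2 RPKM at 240 min, compared with 122 RPKM at 230 min (-1.51). QCR2 (1.12) shares its own with RPC82, an RNA polymerase III subunit (-1.32), and ATP5 (1.21) with BFR2, a processome gene (-1.32).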

How the data were processed

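The values are the signal that the authors deposited for each gene in each RNA library, called RKPM per the file headers. A second table, scaled to each gene's maximum, was not used. The submitters' processing notes name Bowtie2 and the build R64, and how reads were counted is not given in the sources used here. Hot phenol was used to extract RNA and an NEBNext Ultra RNA kit, which does not mark the strand, to make libraries, per the labels' protocols. When each deposited signal was multiplied by gene length, the library sums were 41500000 to 44800000. The depth of each library was set to place the most low values at small whole multiples of 50 bases. A minority lay there, 33 of 144 low values at 240 min and 22 of 143 at 230 min. The signal was read as base coverage per kilobase and divided by an assumed read length of 50 to give RPKM. This reading rests on the values alone, and the depths derived from it are estimates, so no counting intervals were made.

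Columns 1 to 12 follow the time point numbers in the sample titles. Kept were genes with a mean of at least 500 on the deposited scale, which is 10 RPKM. The difference is log2(RPKM + 1) at 240 min minus that at 230 min, which understates the change of low genes, and 2-fold means a difference of at least 1. Systematic names matched the R64 annotation for 5476 of the 5979 kept genes, which gave symbols, coordinates and neighbours; 503 were not matched and 157 overlap another gene. Empty lines in the table numbered 4. The gene lists, the rule and the interval were chosen with earlier results of these data known. Named genes are the 15 largest differences with a symbol in each direction, 3 per list with a median of at least 0.5 or 25% of members past 2-fold, 50 fixed genes and members past 2-fold against their list, 131 in all, some of which are not reported here. HXK1, HXK2, CDC19, RPS28A, NDE1, CYC1, CYC7, QCR2, the MCM genes, NUM1, MET1, SUL1, MHT1, HTZ1, DSE1, CTS1, the neighbour pairs and the genes of the closing part were named after their values were seen. Of the list entries, 22 are not in the counts, 19 of them below the minimum and 3 with no matching name. Promoter sequences were not used here. Tools were Python 3.11.15, NumPy 2.4.6, pandas 2.3.3 and Matplotlib 3.10.9.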

Additional observations from a re-analysis of the deposited data

How the results depend on the processing

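The count of genes at least 2-fold higher at 240 than at 230 min was 597 without rescaling, 392 after median-ratio scaling and 429 after quantile normalization, and between 474 and 638 under the other alternatives, which were pseudocounts of 0.1 and 5 RPKM, minimums of 50 and 2000 on the deposited scale, leaving out overlapping genes, and the values not divided by read length. The count of genes at least 2-fold lower was 298 without rescaling, 425 and 403 under the same scalings, 180 with the minimum of 2000, where only 3594 genes were measured, and between 255 and 339 under the others. Median-ratio scaling shifted the differences together, by -0.18 in the median. The 392 higher genes were thus bound to be among the 597, and the 298 lower genes to stay past 2-fold. By quantiles, which do not shift all genes alike, 415 of the 597 and 294 of the 298 stayed past 2-fold. Of the 48 list medians, 8 that lay between 0.04 and 0.18 changed sign under median-ratio scaling and under quantile normalization, and 6 others were no longer past 2-fold under median-ratio scaling and 3 under quantile normalization. Of the 131 named genes, 118 kept their direction and their side of 2-fold under median-ratio scaling and 117 under quantile normalization. No named gene past 2-fold and no list median past 2-fold changed sign under any alternative. For single genes past 2-fold, only quantile normalization could have changed the sign. Leaving out overlapping genes kept the 503 genes not matched to the annotation, whose overlaps are not known. No paired analysis was possible because each time has 1 library. Genes with few estimated reads, such as CYC7, cannot be ranked at this depth.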

Other observations

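Among the genes at least 2-fold higher at 240 than at 230 min, 28 were highest of the 12 libraries at 240 min. That is 4.69% of them, beside 11.0% of all genes. PCK1 (YKR097W), the phosphoenolpyruvate carboxykinase of gluconeogenesis, had 126 RPKM at 240 min, against 59.5 RPKM at 230 min (a log2 difference of 1.07). GPA2 (YER020W), a G protein alpha subunit of glucose sensing, had 398 RPKM at 240 min, compared with 168 RPKM at 230 min (1.24). Its levels at 200 and 260 min were nearly as high, at 397 and 392 RPKM, and 230 min was its lowest library. MHT1 (YLL062C), a homocysteine methyltransferase, had 165 RPKM at 240 min, against 63.9 RPKM at 230 min (1.35), BNA3 (YJL060W), a kynurenine aminotransferase, had 182 RPKM at 240 min, compared with 80.1 RPKM at 230 min (1.17), and RAD59 (YDL059C), of recombination, had 113 RPKM at 240 min, against 50.8 RPKM at 230 min (1.14). These 3 genes had been high at 220 min as well, at 127, 159 and 112 RPKM, so that 230 min was a dip of a single library, as for YET2. With 1 library per time, a dip at 230 min cannot be told apart from the variation of that library.

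The vitamin B6 genes SNZ3, SNO3, SNZ2 and SNO2 were also in step, with 95.9, 47.7, 80.8 and 46.1 RPKM at 240 min and 31.2, 22.1, 32.5 and 21.8 RPKM at 230 min. They lie as divergent pairs near the ends of chromosomes VI and XIV, and their copies are nearly identical, so the pairs are not independent measurements. Sugar transporters moved apart: HXT5 (YHR096C) had 132 RPKM at 240 min, compared with 53.6 RPKM at 230 min (1.29), HXT2 (YMR011W) had 186 RPKM at 240 min, against 263 RPKM at 230 min (-0.50), and HXT6 and HXT7, which are nearly identical copies, had 478 and 509 RPKM at 240 min, compared with 715 and 781 RPKM at 230 min. BDH1 (YAL060W), a butanediol dehydrogenase, was higher at 240 min (224 RPKM, against 78.5 RPKM at 230 min), and ECM1 (YAL059W), an export factor of the large ribosomal subunit that starts 205 bases after the end of BDH1, was lower (56.2 RPKM, against 202 RPKM at 230 min).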
